A study of Mus musculus with 18 samples.

Results

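Developmental transcription factors are DNA-binding proteins that lay out body regions and organs in the embryo, and many stay expressed in the adult organ that they helped to form. The genes described here are 141 genes taken from the array by gene symbol and called factors below: Hox, Pax, Eya, Six3 to Six5, Dlx, Pitx, Msx, Lhx, Irx, Sox, Fox, Gata, T-box, Nkx, Meis, Pbx, Barx, Alx, Prrx, Tfap2, Emx, Otx, Isl1, Ehf and Elf genes, without Sox11 and Foxm1. A symbol match does not make each of them a DNA-binding protein, and Dlx6os2 is a long noncoding RNA. Of the array's 10500 probes, 144 carried such a symbol and 141 remained, each for a different gene. They were measured in 3 glands: the lacrimal gland, source of the tear fluid, the submandibular salivary gland, and the meibomian glands, which secrete tear lipid from within the eyelids. All mice were orchiectomised male BALB/c mice without a genetic change named in the labels, and the labels used here give no age. They carried a placebo pellet or a testosterone pellet for 21 days, so the placebo groups are castrated animals without a testis androgen source. Each of the 6 groups had 3 pools (A, B and C). A pool combined 10 glands, with 5 animals contributing, but 4 animals per sex and experiment are also stated in the labels.

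All 3 glands grow as epithelial buds that branch into surrounding mesenchyme. Pax6 and Alx4 are known for lacrimal gland formation in epithelium and mesenchyme respectively, Barx2 for growth of the lacrimal bud, Sox10 for the secretory ends of lacrimal and salivary glands, and Gata6 for sebaceous tissue. Hox genes lie in 4 clusters and mark position along the body, while most of the head forms in front of the region that Hox genes pattern.

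Values are intensities on the scale deposited by the authors, on which the median probe of each array lay between 0.929 and 0.952, and the number of arrays, 3 per group, limits their precision. Differences are log2(intensity + 0.174), given ± SE from a limma fit of all 18 arrays, with p-values adjusted by Benjamini-Hochberg over 7463 tested probes, and a difference at an adjusted p under 0.05 is said to pass. On this scale the change of a dim probe is understated, and levels of different probes cannot be ranked. The arrays of the meibomian gland stood apart: their 10th percentile was 0.0514 to 0.0741 against 0.211 to 0.316 on the other arrays, and their brightest probe read 135 to 219 against 597 to 1042. Each gland carried its own products, since the 6 meibomian and sebaceous marker probes summed to 437 to 453 in placebo meibomian pools and at most 38.7 in the placebo pools of the other glands, and the 4 submandibular marker probes to 707 to 805 against at most 53.1. The 2 lacrimal marker probes measured, Ltf and Car6, summed to 611 to 654 in placebo lacrimal pools but also to 473 to 533 in submandibular pools, where Car6 was bright and Ltf was not. The meibomian pools also held 8 skeletal muscle probes (7 of them tested) summing to 159 to 201 with placebo, against at most 9.07 elsewhere, and 4 keratinocyte probes summing to 90.4 to 126 against at most 7.76. In such whole-gland RNA, fewer cells of a type and less RNA per cell cannot be told apart.

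Of the 141 factors, 82 were bright enough to test, which needed 3 or more arrays with a value beyond the array's 40th percentile. That is 58.2%, against 71.1% of all probes. The remaining 59 were too dim to test, 5 of them (Dlx1, Foxo4, Hoxa5, Hoxa11 and Tbx18) with 1 array beyond that percentile. Of the 59, 16 were among the 26 Hox probes and 13 among the 21 probes of the Dlx, Msx, Barx, Nkx and Emx group. They include Hoxa5, Hoxc5, Hoxd3, Sox2, Sox17, Tbx1, Msx1, Isl1, Foxj1, Foxl2, Prrx1, Otx2 and Eya1, and a dim probe is no proof that the gene is silent. All 6 ETS probes (Ehf and Elf1 to Elf5), all 3 Tfap2 probes, 8 of 9 probes of the Irx, Meis and Pbx group, 15 of 26 Fox and 5 of 6 Gata probes were tested. Of the 82 tested, 14 were dim in all 6 meibomian pools, 9 in all 6 submandibular and 8 in all 6 lacrimal pools, and 7 were dim in 2 whole glands. A gene that passed the filter only through the gland where it was bright was bound to lean towards a difference between glands, so the gland counts below describe the tested genes without standing as evidence for factors as a class.

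With placebo, 76 of the 82 tested factors differed between at least 1 pair of glands, or 92.7%, against 82.3% of all tested probes. Lacrimal and submandibular gland differed in 44 (24 higher and 20 lower in lacrimal), or 53.7% against 44% of all probes (26.2% higher and 17.8% lower). Lacrimal and meibomian gland differed in 67 (53 higher and 14 lower in lacrimal), or 81.7% against 67.9% (38.7% higher and 29.2% lower). Between submandibular and meibomian gland the count was 68 (49 higher and 19 lower in submandibular), or 82.9% against 66.6% (36% higher and 30.6% lower). The tested factors were mostly brighter in the lacrimal and submandibular glands than in the meibomian gland: the median lacrimal minus meibomian difference was 1.02 over the tested factors and 0.12 over all tested probes. With the dim values of every array raised to 1 common floor of 0.646, an alternative chosen after seeing the data, the counts against the meibomian gland were 60 and 63 in place of 67 and 68. Without the filter on dim probes they were 122 and 119 of the 141 factors, beside 72.6% and 69.2% of all probes. A single gland stood above both others for 49 factors: 21 were highest in the lacrimal gland (25.6% against 18% of all probes), 16 in the submandibular gland (19.5% against 9.59%) and 12 in the meibomian gland (14.6% against 22.6%). The meibomian gland was the lowest for 43 (52.4% against 28.8%). For 38 of the 49, both calls were kept under every alternative and without each array in turn (15 lacrimal, 14 submandibular and 9 meibomian). The exceptions were Foxp3, Gata1, Hoxd4, Lhx1, Meis1 and Tfap2a in the lacrimal, Dlx2 and Eya2 in the submandibular, and Elf3, Foxq1 and Sox15 in the meibomian gland.

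**Figure D1:**
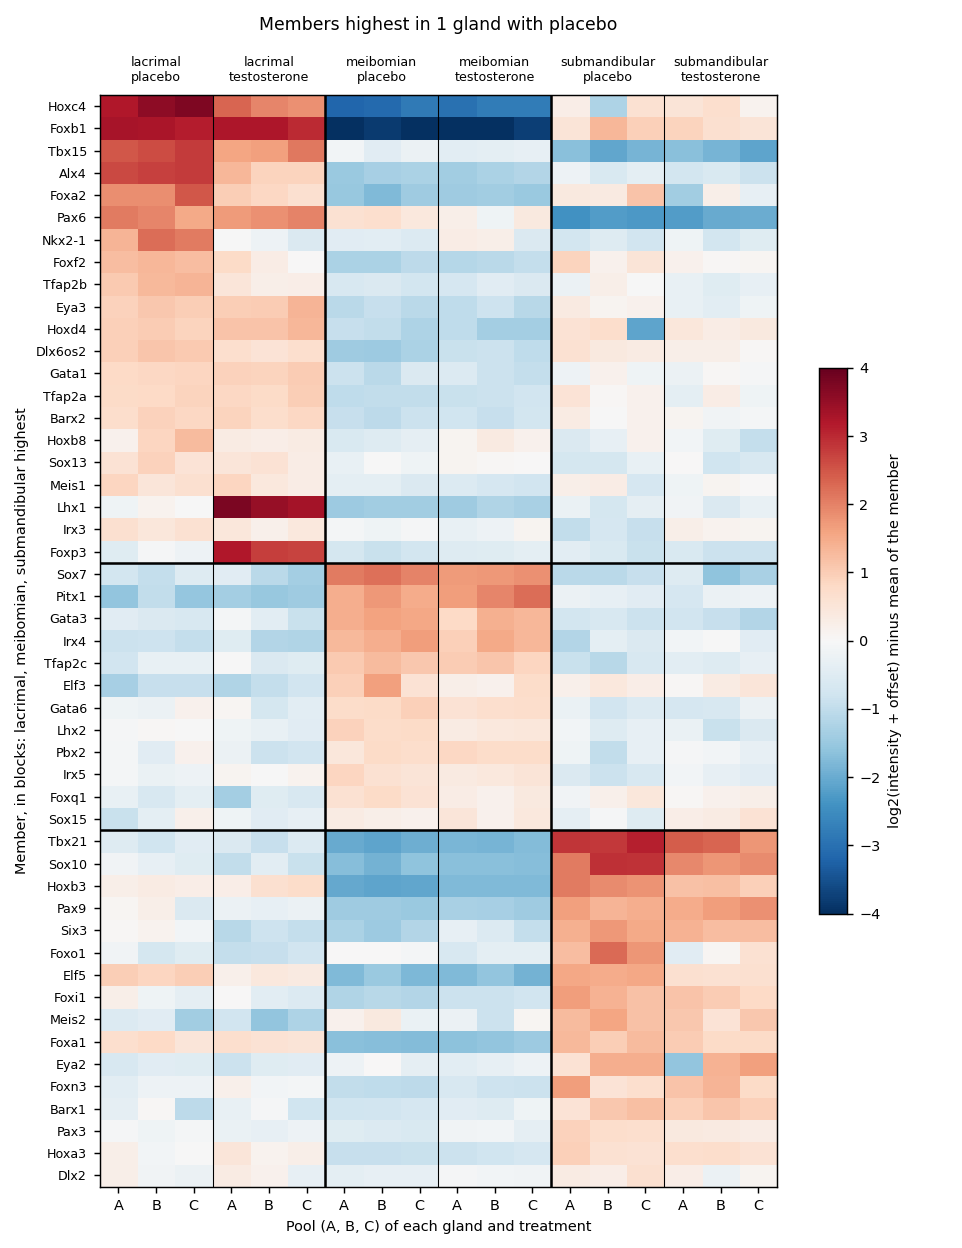
Heat map of the 49 factors that were highest in 1 gland with placebo, in 3 blocks (lacrimal, meibomian, submandibular), with a column for each of the 18 pools. Colour is log2(intensity + offset) minus the mean of that gene over all pools, from blue (low) to red (high); within the lacrimal block, Lhx1 and Foxp3 are far brighter with testosterone than with placebo.

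The lacrimal gland was marked by Pax6, the paired-box factor of eye and lacrimal gland formation. Its intensity in placebo pools A, B and C was 14.7, 13.4 and 9.93 in the lacrimal gland, 5.18, 5.44 and 4.59 in the meibomian gland and 0.481, 0.573 and 0.548 in the submandibular gland. No pool of 1 gland overlapped with a pool of another, and the submandibular gland was the low one. The lacrimal gland exceeded the submandibular gland by 4.16 ± 0.16, adjusted p = 3.92e-12, and the meibomian gland by 1.28 ± 0.16, adjusted p = 3.01e-06. Alx4, the homeobox gene of the lacrimal mesenchyme, read 3.96, 4.32 and 4.49 in lacrimal pools, 0.403, 0.264 and 0.340 in submandibular pools and 0.0657, 0.0898 and 0.104 in meibomian pools. Only the lacrimal pools were bright, and the difference was 3.13 ± 0.14, adjusted p = 3.20e-11 against the submandibular gland and 4.09 ± 0.14, adjusted p = 3.84e-13 against the meibomian gland. Since both other glands were dim, these sizes depend on the background, and with the common floor both were 2.43. Alx4 was dim in every pool of those glands, so it passed the filter only through the lacrimal gland. Barx2, which takes part in growth of the lacrimal bud, was less exclusive, at 7.79 ± 0.620 (mean ± SD, n = 3 pools, as below) in lacrimal, 4.88 ± 0.557 in submandibular and 2.17 ± 0.158 in meibomian gland. Not all factors chosen for a textbook place in these glands marked a gland. Foxc1 and Sox9 were highest in none. For Foxc1 no gland pair passed with placebo or testosterone, and for Sox9 none passed with testosterone.

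Foxb1, a forkhead gene known from the hypothalamus and midbrain, was bright in the lacrimal gland and dim in all meibomian pools. It read 57.9, 56.7 and 52.6 in lacrimal, 8.39, 14.7 and 11.4 in submandibular and 0.155, 0.246 and 0.178 in meibomian pools. The order lacrimal, submandibular, meibomian held for every pool, with differences of 2.30 ± 0.17, adjusted p = 1.67e-08 and 4.96 ± 0.17, adjusted p = 4.93e-13 between neighbours. The lacrimal minus meibomian difference was 7.26, and 6.09 with the common floor for dim values. Hoxc4, an anterior gene of the HoxC cluster, followed the same order, with 80.7, 105 and 116 in lacrimal, 10.4, 3.54 and 13.2 in submandibular and 0.802, 0.847 and 1.06 in meibomian pools. Submandibular pool B was low beside A and C, yet no pools of different glands overlapped, and the lacrimal gland exceeded the submandibular gland by 3.63 ± 0.33, adjusted p = 1.66e-07.

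Tbx15, a T-box factor of mesenchyme and the developing skeleton, read 8.49, 9.32 and 10.6 in lacrimal, 1.28, 0.978 and 1.16 in meibomian and 0.317, 0.199 and 0.254 in submandibular pools. All submandibular pools were dim. The lacrimal excess over them was 4.49 ± 0.17, adjusted p = 1.86e-12, and 3.55 with the common floor. Foxc2, a forkhead gene of mesenchyme and lymphatic vessels, was bright in both glands of the eye region, at 6.23, 7.13 and 6.44 in lacrimal and 5.48, 5.86 and 5.72 in meibomian pools, and dim in the submandibular gland at 0.368, 0.0969 and 0.297. The difference between the 2 eye-region glands did not pass for Foxc2 (0.21 ± 0.19, adjusted p = 0.35), whereas the submandibular gland lay below the lacrimal gland by 4.04 ± 0.19, adjusted p = 4.24e-11. Nkx2-1, known for thyroid and lung, read 2.45, 4.65 and 4.17 in lacrimal pools and at most 0.595 in any placebo pool of the other glands (2.56 ± 0.25, adjusted p = 3.49e-07, against the submandibular gland). Foxa2, a pioneer factor of endoderm, was 3.78 ± 1.03 in lacrimal, 1.30 ± 0.485 in submandibular and 0.141 ± 0.0398 in meibomian gland. Further factors highest in the lacrimal gland were Tfap2a and Tfap2b of the neural crest and surface ectoderm, Foxf2, Eya3, Meis1, Sox13, Gata1, Hoxb8, Hoxd4, Irx3 and the long noncoding RNA Dlx6os2. The lacrimal excess of Hoxd4 over the submandibular gland (1.22 ± 0.47, adjusted p = 0.0482) came with a low submandibular pool C (0.189 beside 2.16 and 2.35) and was lost without any 1 of 15 of the 18 arrays, that pool included. In the same class, the submandibular excess of Gata1 over the meibomian gland (0.76) turned to -0.01 with quantile normalization. Both of the calls that made Gata1 highest in the lacrimal gland were lost with the common floor. Gata1 was dim in all meibomian and submandibular pools, so it passed the filter only through the lacrimal gland.

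The submandibular gland was marked by Sox10, the factor of secretory end pieces and neural crest cells. Placebo pools A, B and C read 7.76, 14.0 and 13.7 in the submandibular gland, 1.5, 1.30 and 1.15 in the lacrimal gland and 0.403, 0.324 and 0.432 in the meibomian gland. Every submandibular pool lay above every lacrimal pool although pool A was lower than B and C, and the gland difference was -2.97 ± 0.20, adjusted p = 3.28e-09 for lacrimal minus submandibular. The Schwann cell and neuron markers measured, S100b and Snap25, summed to 1.83 to 2.06 in placebo submandibular pools and 1.60 to 1.77 in lacrimal pools, while the myoepithelial markers Acta2, Cnn1, Tagln and Myh11 summed to 61.0 to 72.6 and 22.8 to 26.7. Their part in the Sox10 difference was not tested. Pax9, a pharyngeal and oral epithelium factor, read 1.54, 1.26 and 1.35 in submandibular pools, 0.415, 0.484 and 0.199 in lacrimal pools and 0.0237 to 0.0337 in meibomian pools. Submandibular pools stood alone above the rest, by 1.56 ± 0.17, adjusted p = 1.39e-06, over the lacrimal gland, where all pools were dim, and by 0.92 with the common floor. The meibomian pools were all dim too, so Pax9 passed the filter only through the submandibular gland.

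Six3, a homeobox gene of eye and forebrain, was bright in all glands and brightest in the submandibular gland, at 119.6, 148 and 128 against 45.9, 49.2 and 41.6 in lacrimal and 18.6, 16.1 and 19.5 in meibomian pools. The pools kept 3 separate levels, with a submandibular minus meibomian difference of 2.86 ± 0.15, adjusted p = 6.98e-11. Hoxb3, of hindbrain and pharyngeal arches, was 22.0 ± 2.01 in submandibular, 6.92 ± 0.231 in lacrimal and 1.21 ± 0.0378 in meibomian gland. Tbx21, the T-bet factor of type 1 lymphocytes, read 8.42, 8.24 and 10.1 in submandibular pools and at most 0.700 in any placebo pool of the other glands. The T cell receptor probes Cd3e and Cd3g were too dim to test, and the B cell gene Cd79a had a mean of 21.5 in submandibular, 33.3 in lacrimal and 4.17 in meibomian gland with placebo. Elf5, the ETS factor of secretory mammary epithelium, was 10.0 ± 0.242 in submandibular, 6.60 ± 0.326 in lacrimal and 0.939 ± 0.143 in meibomian gland, so that both watery secretory glands exceeded the meibomian gland. Foxa1 had the same order, at 15.7 ± 1.79, 10.7 ± 1.17 and 1.96 ± 0.0638. Foxi1, the factor of ion-transporting duct cells, was 12.2 ± 2.16 in submandibular and 4.14 ± 0.939 in lacrimal gland, a difference of 1.52 ± 0.17, adjusted p = 2.15e-06. Foxo1, Meis2, Barx1, Foxn3, Hoxa3, Pax3, Eya2 and Dlx2 were also highest there, with lacrimal minus submandibular differences from -2.20 (Foxo1) to -0.46 (Dlx2). The place of Dlx2 was lost under 3 alternatives and without any 1 of 12 arrays, and that of Eya2 under 2 alternatives and without any 1 of 6.

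Among the 12 factors highest in the meibomian gland was Pitx1, known for hindlimb and pituitary. It read 2.5, 3.06 and 2.56 in meibomian pools, 0.655, 0.607 and 0.537 in submandibular pools and 0.155, 0.318 and 0.157 in lacrimal pools. Meibomian pools lay above all others, by 1.90 ± 0.18, adjusted p = 1.35e-07 over the submandibular gland. Sox7, a factor of endothelium, read 4.11, 4.44 and 3.86 in meibomian pools and at most 0.526 in the placebo pools of the other glands (-2.82 ± 0.24, adjusted p = 2.46e-08 for lacrimal minus meibomian). The 4 endothelial probes (Pecam1, Kdr, Tek and the dim Cdh5) summed to 1.43 to 1.76 in placebo meibomian pools, 1.83 to 2.94 in lacrimal and 2.68 to 3.51 in submandibular pools. Gata3, a factor of skin and hair follicle as well as of T cells, was 2.90 ± 0.155 in the meibomian gland against 0.551 ± 0.0460 and 0.465 ± 0.0456 in lacrimal and submandibular gland. Gata6, the sebaceous factor, was 0.804 ± 0.0847, 0.351 ± 0.0791 and 0.211 ± 0.0678 in the same order. Both Sox7 and Gata6 were dim in all lacrimal and submandibular pools, so they passed the filter only through the meibomian gland. For Sox7 the lacrimal minus meibomian difference was -2.39 with the common floor.

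Irx4, best known from the ventricle of the heart, read 2.11, 2.38 and 2.80 in meibomian pools and at most 0.544 in placebo pools of the other glands. Irx5, its relative, was 3.09 ± 0.398 in meibomian, 1.63 ± 0.135 in lacrimal and 1.10 ± 0.117 in submandibular gland. Tfap2c of surface ectoderm (3.55 ± 0.323 in meibomian gland, 1.08 ± 0.217 in lacrimal, 0.755 ± 0.152 in submandibular), the epithelial ETS factor Elf3 (3.20 ± 1.32, 0.573 ± 0.112 and 1.71 ± 0.152) and Lhx2, a factor of hair follicle stem cells (0.922 ± 0.0763, 0.447 ± 0.0158 and 0.325 ± 0.0715), were also highest in the meibomian gland, as were Pbx2, Foxq1 and Sox15. Lhx2 was dim in all lacrimal and submandibular pools, so it too passed the filter only through the meibomian gland. The Elf3 call against the submandibular gland was lost without placebo meibomian pool B, and the place of Foxq1 without any 1 of 12 arrays. The meibomian pools also carried the keratinocyte and skeletal muscle markers given above, whose part in these differences was not tested.

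**Figure D2:**
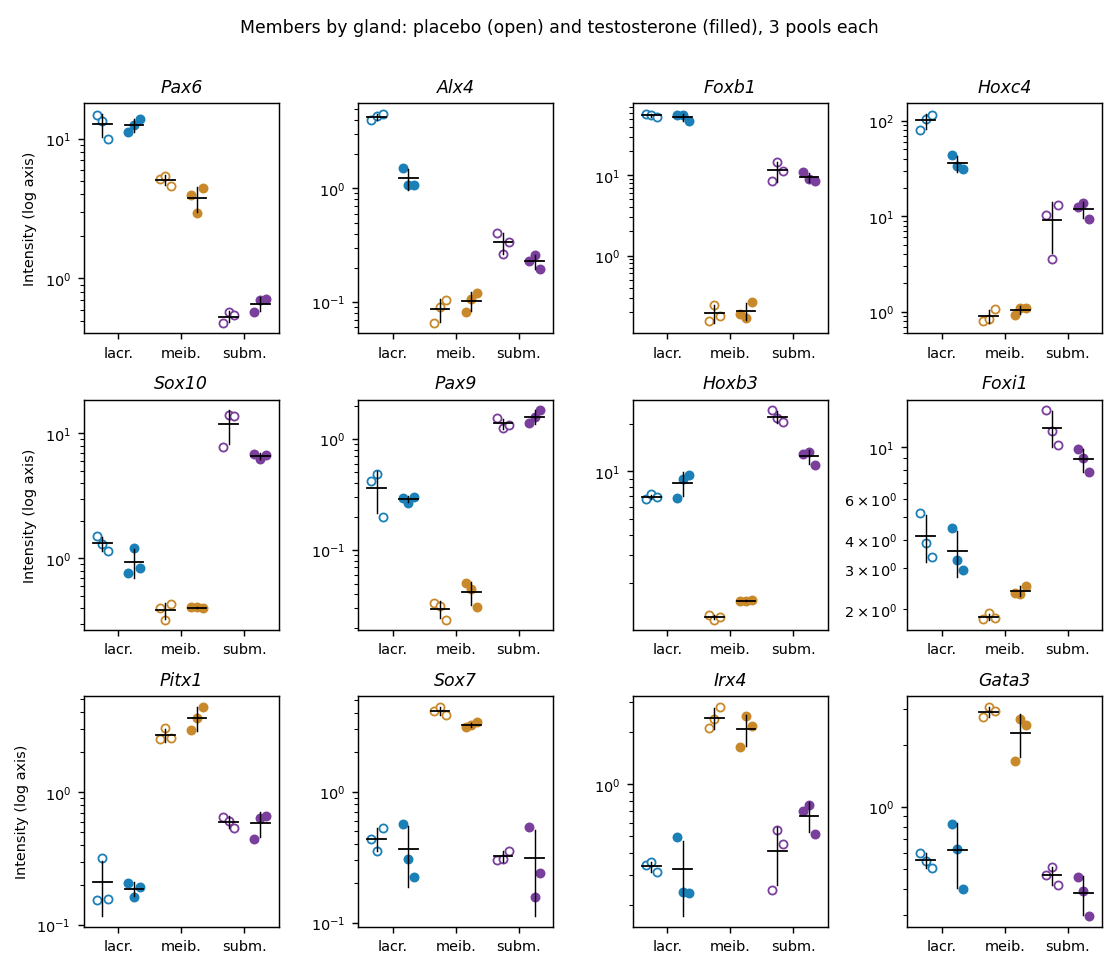
Intensity (log axis) of 12 factors in each pool, lacrimal (blue), meibomian (orange) and submandibular (purple), with placebo (open) and testosterone (filled). Each point is a pool, horizontal lines are means and vertical lines SD of n = 3; the top row shows lacrimal factors, the middle row submandibular factors and the bottom row meibomian factors.

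Family counts with placebo stand beside 38.7% higher and 29.2% lower of all tested probes in lacrimal against meibomian gland, and 36% and 30.6% in submandibular against meibomian gland. Of 10 tested Hox genes, 9 were higher in the lacrimal than in the meibomian gland and 0 lower, and 7 were higher and 1 lower in the submandibular than in the meibomian gland. All 5 tested Pax genes (Pax1, Pax3, Pax4, Pax6 and Pax9) were higher in the lacrimal than in the meibomian gland. Of these, Pax9 was dim in every lacrimal and meibomian pool, and its difference was 0.0 with the common floor. Six3, Six4, Six5, Eya2 and Eya3 were all higher in the submandibular than in the meibomian gland. Six4 and Six5, and Hoxc6 among the Hox genes, were dim in all meibomian pools, so their differences depend on the background there. The 8 tested Irx, Meis and Pbx genes divided into 3 higher and 4 lower in the lacrimal than in the meibomian gland and 2 higher and 4 lower in the submandibular gland. For several bright factors the difference between lacrimal and submandibular gland did not pass: Dlx3, a factor of ectodermal appendages, was 17.5 ± 0.920 and 16.5 ± 2.48, Gata4 5.19 ± 0.412 and 4.33 ± 0.431, and Hoxb13 6.20 ± 0.806 and 6.57 ± 0.947, while the meibomian gland read 6.59 ± 0.399, 1.45 ± 0.0403 and 3.66 ± 0.0848.

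Some genes that lie side by side on a chromosome are considered next. Other tested neighbours, such as Irx3 and Irx5 or Hoxb5 and Hoxb3, are not covered here. In the HoxC cluster Hoxc4 and Hoxc6 were tested, while Hoxc5 between them, Hoxc8 and Hoxc9 were dim. Hoxc6 was 1.60 ± 0.422 in lacrimal and 1.19 ± 0.365 in submandibular gland with placebo, a difference that did not pass (0.39 ± 0.21, adjusted p = 0.155). Nkx2-1 and Pax9 lie close together on chromosome 12, and the first was highest in the lacrimal gland and the second in the submandibular gland. Ehf and Elf5, neighbours on chromosome 2, were both lower in the meibomian gland (1.37 and 2.61 for lacrimal minus meibomian). Foxq1 was highest in the meibomian and its neighbour Foxf2 on chromosome 13 in the lacrimal gland.

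Most gland differences seen with placebo were present in the separate testosterone arrays too. The calls of both treatments share the filter and 1 spread per probe, so they are not fully independent. Of the 44 placebo differences between lacrimal and submandibular gland, 36 passed in the same direction with testosterone (81.8%, against 64.9% of all probes called with placebo). Between lacrimal and meibomian gland 59 of 67 did (88.1% against 81.7%), and between submandibular and meibomian gland 57 of 68 (83.8% against 82.9%). With testosterone 50 factors differed between lacrimal and submandibular gland (27 higher and 23 lower), or 61% against 52.5% of all probes (28.3% higher and 24.2% lower). Against the meibomian gland, 62 differed in the lacrimal gland (47 higher and 15 lower), or 75.6% against 69.2% (36.9% and 32.2%). In the submandibular gland 62 also differed (47 higher and 15 lower), or 75.6% against 67.3% (35.7% and 31.5%). Six3 was the one factor that passed in opposite directions, higher in the lacrimal than in the meibomian gland with placebo (1.33) and lower with testosterone (-0.37). The testosterone difference was small, and the Six3 pools of these glands overlapped there. It also rests on the meibomian rise of Six3, given below, whose call was lost when most single arrays were left out. Of the factors highest in a gland with placebo, 15 of 21 were also highest in the lacrimal gland with testosterone (71.4% against 60.4% of all such probes), 12 of 16 in the submandibular gland (75% against 67.9%) and 9 of 12 in the meibomian gland (75% against 79.8%), and 0 became highest in another gland. With testosterone, 22, 15 and 9 factors were highest in these glands, or 26.8%, 18.3% and 11% of the tested factors, against 19.3%, 12.5% and 23% of all probes. The meibomian gland was then the lowest for 41 (50% against 25.9%). Pax6, for example, read 11.2, 12.4 and 13.8 in testosterone lacrimal pools and 0.571, 0.699 and 0.713 in submandibular pools. The lacrimal values lay within the range of the placebo lacrimal pools. Median absolute gland differences of the factors were 1.28 with placebo and 1.04 with testosterone for lacrimal and meibomian gland (0.77 and 0.79 over all probes). They were 1.27 and 0.93 for submandibular and meibomian gland (0.72 and 0.71), and 0.52 and 0.56 for lacrimal and submandibular gland (0.43 and 0.51). Whether these medians differ between treatments was not tested.

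**Figure D3:**
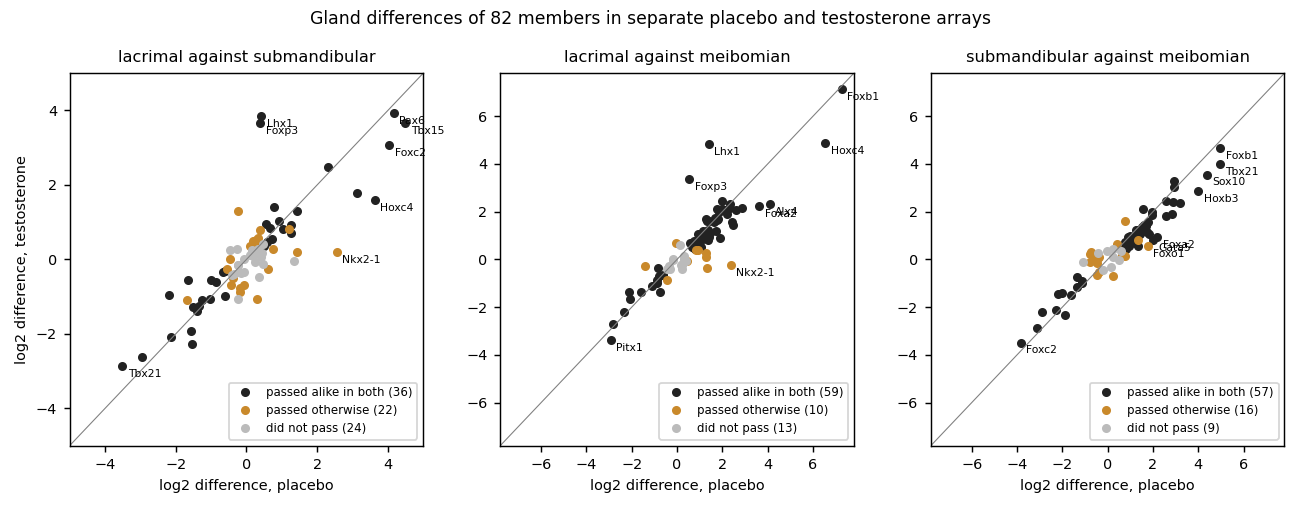
Log2 gland difference of each of the 82 tested factors with placebo (x axis) and with testosterone (y axis), in 3 panels for the 3 gland pairs. Black points passed alike in both treatments (36, 59 and 57), orange points passed otherwise and grey points did not pass; in the panels with the lacrimal gland, Lhx1 and Foxp3 lie far above, and Nkx2-1 and Hoxc4 below, the grey line of equal differences.

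Testosterone changed 20 of the 82 tested factors in the lacrimal gland, 6 higher and 14 lower, or 24.4% against 28.1% of all tested probes (13.3% higher and 14.8% lower). It changed 15 in the submandibular gland, 6 higher and 9 lower, or 18.3% against 13.8% (8.54% higher and 5.25% lower). In the meibomian gland 1 passed, or 1.22% against 0.59% (0.469% higher and 0.121% lower). These shares lay near those of the whole array and are no result about the factors as a class. The median change of the tested factors was -0.08, -0.06 and 0.09 in lacrimal, submandibular and meibomian gland, beside -0.07, 0.01 and 0.06 over all tested probes. Whether pools stand apart gives another view: placebo and testosterone pools did not overlap for 30 factors in the lacrimal gland (36.6% against 39.7% of all probes), 27 in the submandibular gland (32.9% against 28.8%) and 39 in the meibomian gland (47.6% against 35.9%).

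Lhx1, a LIM homeobox factor of kidney and head formation, rose most. It read 0.893, 1.16 and 1.0 in placebo lacrimal pools and 16.1, 13.1 and 11.9 with testosterone. The groups did not overlap, and the change was 3.54 ± 0.15, adjusted p = 3.08e-11. The change did not pass in the submandibular gland (0.824, 0.569 and 0.756 against 0.905, 0.637 and 0.808, a change of 0.11 ± 0.15, adjusted p = 0.712) or in the meibomian gland (0.276 ± 0.0134 against 0.312 ± 0.0389). Foxp3, the factor of regulatory T cells, read 3.07, 4.20 and 3.70 in placebo lacrimal pools and 41.1, 30.1 and 29.4 with testosterone. The groups lay far apart, by 3.13 ± 0.15, adjusted p = 1.45e-10, whereas submandibular pools read 3.20, 2.75 and 2.28 against 2.79, 2.31 and 2.33. The 6 macrophage and lymphocyte probes, of which Cd3e, Cd3g and Adgre1 were dim and Cd79a, Cd79b and Cd74 tested, summed to 43.0 to 50.4 in placebo and 49.7 to 65.3 in testosterone lacrimal pools, with Cd79a at a mean of 33.3 and 47.6. Their part in the Foxp3 change was not tested.

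Smaller rises in the lacrimal gland were those of Gata5, a factor of heart and endoderm, Foxp1, Hoxc13, a regulator of hair and nail keratins, and Dlx3. Gata5 read 6.65, 6.45 and 5.10 with placebo and 11, 12.5 and 11.1 with testosterone, without overlap (0.92 ± 0.13, adjusted p = 3.95e-05). Foxp1 was 0.587 ± 0.199 and 1.53 ± 0.545 (1.15 ± 0.22, adjusted p = 0.000788), and Hoxc13 1.71 ± 0.339 and 2.79 ± 0.585 (0.65 ± 0.16, adjusted p = 0.00665). The rise of Dlx3 (0.41 ± 0.12, adjusted p = 0.0179) did not pass when the lacrimal arrays were fitted alone.

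The 14 falls in the lacrimal gland included several factors that were highest in this gland with placebo. Nkx2-1 read 2.45, 4.65 and 4.17 with placebo and 0.837, 0.722 and 0.515 with testosterone. The groups did not overlap (-2.15 ± 0.25, adjusted p = 5.02e-06), and with testosterone the difference from the submandibular gland did not pass (0.20 ± 0.25, adjusted p = 0.53). Alx4 read 3.96, 4.32 and 4.49 and then 1.51, 1.07 and 1.07, a fall of 1.68 ± 0.14, adjusted p = 1.43e-07. It stayed above the submandibular gland, where pools read 0.232, 0.260 and 0.196 with testosterone (1.78 ± 0.14, adjusted p = 2.73e-08). Hoxc4 fell from 80.7, 105 and 116 to 43.8, 33.5 and 31.1 (-1.48 ± 0.33, adjusted p = 0.00298), again with no overlap and still above the testosterone submandibular pools (12.4, 13.9 and 9.42).

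Foxa2 was 3.78 ± 1.03 with placebo and 1.46 ± 0.193 with testosterone in the lacrimal gland, and Six3 45.6 ± 3.82 and 22.7 ± 2.27. Tfap2b, Foxf2, Foxc2 and Tbx15 fell by 0.91 ± 0.13, adjusted p = 6.60e-05, 0.90 ± 0.19, adjusted p = 0.00155, 0.86 ± 0.19, adjusted p = 0.00284 and 0.85 ± 0.17, adjusted p = 0.000983, in that order. Elf5, Prrx2, Gata4, Dlx6os2 and Sox18 fell by less, from -0.61 to -0.40. The calls of Gata4, Prrx2 and Sox18 were lost with the lacrimal arrays fitted alone, and Sox18 had a value in only 2 testosterone pools. Of the 14 falls, 8 were among the factors highest in the lacrimal gland with placebo, as were 2 of the 6 rises. Both contrasts use the same placebo lacrimal arrays, so this count is no independent sign of a link. Among other factors highest in the lacrimal gland with placebo, Pax6, Foxb1 and Barx2 did not pass, with changes of -0.01 ± 0.16, adjusted p = 0.982, -0.08 ± 0.17, adjusted p = 0.791 and 0.00 ± 0.11, adjusted p = 0.994. Alx4, Nkx2-1 and Hoxc4, highest there as well, fell as given above. The 4 myoepithelial markers summed to 22.8 to 26.7 in placebo and 10.6 to 12.3 in testosterone lacrimal pools, all 4 passing as lower. The lacrimal products Ltf and Car6 both passed as lower (sums of 611 to 654 and 265 to 412), and the 2 melanocyte probes summed to 0.871 to 1.22 and 3.09 to 3.81, with 1 passing as higher. The part of these markers in the changes of the factors was not tested.

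**Figure D4:**
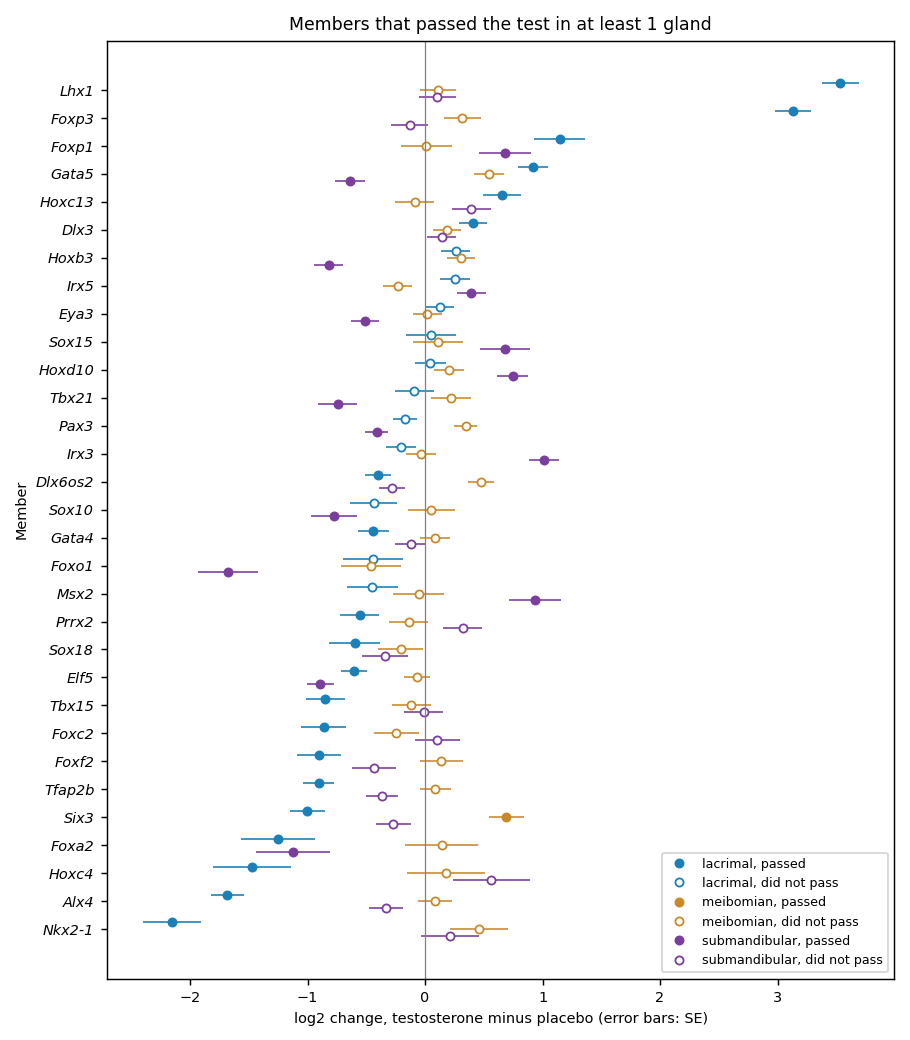
Log2 change with testosterone (x axis, testosterone minus placebo, error bars SE) of each factor that passed in at least 1 gland, sorted by the lacrimal change, with filled points where it passed and open points where it did not. Lhx1 and Foxp3 rise by over 3 in the lacrimal gland and Nkx2-1 falls by over 2, while most submandibular changes lie between -1 and 1.

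The upstream sequences of 4 factors with large changes in the lacrimal gland are shown because they moved in opposite directions in the same pools. They are the 250 bases before each transcript start, 5′ to 3′ on the gene's strand, from RefSeq (GRCm38.p6), in lower case with each CG dinucleotide in capitals. Lhx1 (chr11:84525535-84525784, minus strand) and both annotated starts of Foxp3 (chrX:7579426-7579675 and chrX:7580233-7580482, plus strand) belong to the genes that rose. Nkx2-1 (chr12:56536909-56537158, minus strand) and Hoxc4 (chr15:103034145-103034394, plus strand) belong to those that fell.
Lhx1: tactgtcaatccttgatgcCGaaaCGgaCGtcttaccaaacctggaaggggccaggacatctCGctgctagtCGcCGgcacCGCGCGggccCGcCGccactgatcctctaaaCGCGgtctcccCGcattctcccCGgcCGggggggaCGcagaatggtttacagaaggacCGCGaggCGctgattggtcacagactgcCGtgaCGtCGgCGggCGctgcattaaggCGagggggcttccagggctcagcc
Foxp3, first start: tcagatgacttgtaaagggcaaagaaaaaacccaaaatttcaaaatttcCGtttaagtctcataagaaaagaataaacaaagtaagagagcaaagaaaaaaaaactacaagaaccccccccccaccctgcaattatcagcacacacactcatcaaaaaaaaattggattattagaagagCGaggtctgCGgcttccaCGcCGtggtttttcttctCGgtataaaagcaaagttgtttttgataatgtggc
Foxp3, second start: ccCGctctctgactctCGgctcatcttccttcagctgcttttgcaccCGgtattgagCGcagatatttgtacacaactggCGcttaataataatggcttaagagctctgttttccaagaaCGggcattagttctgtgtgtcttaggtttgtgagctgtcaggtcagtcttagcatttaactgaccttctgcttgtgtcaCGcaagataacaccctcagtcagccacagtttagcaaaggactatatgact
Nkx2-1: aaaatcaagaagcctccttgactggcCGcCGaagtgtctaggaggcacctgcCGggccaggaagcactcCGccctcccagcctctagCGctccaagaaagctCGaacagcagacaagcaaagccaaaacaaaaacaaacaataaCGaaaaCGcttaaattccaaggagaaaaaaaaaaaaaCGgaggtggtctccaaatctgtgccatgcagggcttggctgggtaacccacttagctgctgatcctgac
Hoxc4: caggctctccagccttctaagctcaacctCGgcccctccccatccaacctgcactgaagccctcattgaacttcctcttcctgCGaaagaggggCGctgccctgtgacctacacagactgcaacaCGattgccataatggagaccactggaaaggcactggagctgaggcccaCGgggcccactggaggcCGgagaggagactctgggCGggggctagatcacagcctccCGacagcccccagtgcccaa
The Lhx1 stretch holds 26 CG dinucleotides, those of Foxp3 6 and 7, that of Nkx2-1 9 and that of Hoxc4 8. Of the 141 factors, 97 had an entry, with 125 such stretches and a median of 14 CG dinucleotides, against 6 over all 32851 stretches of the table. At least 15 were held by 48% of the factors' stretches and 27.3% of all. The half-site of the androgen and glucocorticoid receptor motif, AGAACA or its reverse complement TGTTCT (both strands searched), was in 7.2% of the factors' stretches and 16.1% of all. Median GC content was 60.4% in the factors' stretches and 52.4% over all, and its part in these shares was not tested. Of the factors that passed with testosterone, 13 of 20 in the lacrimal and 11 of 15 in the submandibular gland had an entry. The half-site was in 0 of the 19 stretches of the former and in 1 of the 16 of the latter. These are matches of letters in a short window, and nothing about receptor binding was measured.

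In the submandibular gland, testosterone raised Irx3, an Iroquois homeobox factor. Placebo pools read 1.54, 1.94 and 1.61 and testosterone pools 3.80, 3.51 and 3.44. The groups did not overlap (1.01 ± 0.13, adjusted p = 4.35e-05), and the submandibular gland, the lowest of the 3 with placebo, then gave a difference from the meibomian gland that did not pass (0.29 ± 0.13, adjusted p = 0.0528). Msx2, a target of bone morphogenetic protein signals in ectodermal organs, read 1.90, 1.69 and 1.79 and 4.01, 3.19 and 3.60 (0.93 ± 0.22, adjusted p = 0.00927). Hoxd10 read 1.84, 1.62 and 1.51 and 2.60, 3.03 and 3.04 (0.75 ± 0.13, adjusted p = 0.000984). For all 3 genes every testosterone pool lay above every placebo pool. Foxp1, Sox15 and Irx5 rose by 0.68, 0.68 and 0.39, with adjusted p of 0.0486, 0.0443 and 0.0484, and each of these calls was lost under 4 or more of the 10 alternatives tried.

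Foxo1, a forkhead factor kept out of the nucleus by insulin signalling, fell most in the submandibular gland. It read 2.76, 5.86 and 4.08 with placebo and 0.730, 1.16 and 1.73 with testosterone. The pools varied within both groups but did not overlap (-1.68 ± 0.25, adjusted p = 0.000285). Elf5 read 10.2, 9.77 and 10.2 and then 5.36, 5.28 and 5.36, a tight fall of 0.89 ± 0.11, adjusted p = 4.46e-05. Hoxb3 fell from 24.2, 21.5 and 20.3 to 12.9, 13.3 and 11 (-0.82 ± 0.12, adjusted p = 0.000258), also without overlap. Sox10 read 7.76, 14.0 and 13.7 with placebo and 6.88, 6.21 and 6.75 with testosterone. The lowest placebo pool lay just above the highest testosterone pool, the change was -0.77 ± 0.20, adjusted p = 0.0158, and the call was lost without placebo pool B or C and with the submandibular arrays fitted alone. Tbx21 (-0.74), Gata5 (-0.64), Eya3 (-0.51), Pax3 (-0.41) and Foxa2 (-1.12) fell as well, and of these Gata5 alone kept its call with the submandibular arrays fitted alone, a fit in which 7 of the 15 calls remained. Pax9 (0.18 ± 0.17, adjusted p = 0.535) and Foxi1 (-0.44 ± 0.17, adjusted p = 0.106), like Sox10 highest in this gland with placebo, did not pass.

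Other cell types' markers moved in the submandibular gland too. The 4 myoepithelial markers summed to 61.0 to 72.6 with placebo and 137 to 157 with testosterone, all 4 passing as higher, and the 3 adipocyte markers (Adipoq, Retn and Fabp4) to 46.6 to 134 and 41.9 to 46.3, with 2 passing as lower. The 5 fibroblast probes summed to 39.1 to 48.1 and 48.7 to 57.2, with 3 passing as higher, and 2 of 7 tested skeletal muscle probes passed as lower, the sums over 8 probes being 3.42 to 9.07 and 2.44 to 3.16. Their part in the changes of the factors was not tested. Of the 9 submandibular falls, 6 were factors highest in that gland with placebo, as were 0 of the 6 rises, and here too both contrasts share the placebo arrays.

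**Figure D5:**
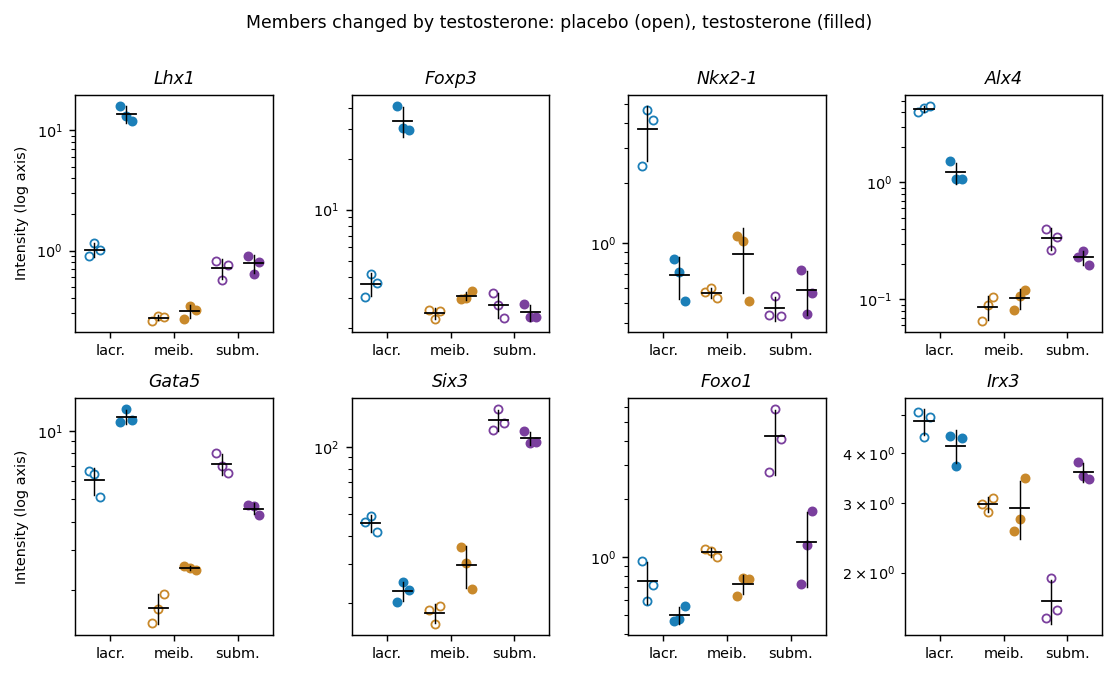
Intensity (log axis) in each pool of 8 factors, with placebo (open) and testosterone (filled), in lacrimal (blue), meibomian (orange) and submandibular gland (purple). Horizontal lines are means and vertical lines SD of n = 3 pools; Lhx1 and Foxp3 pass as higher in the lacrimal gland and in neither other gland, Gata5 rises there and falls in the submandibular gland, and Irx3 rises in the submandibular gland.

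In the meibomian gland Six3 alone passed. It read 18.6, 16.1 and 19.5 with placebo and 35.8, 30.1 and 23.0 with testosterone. The lowest testosterone pool was above the highest placebo pool, but the treated pools spread widely (0.69 ± 0.15, adjusted p = 0.047), and the call was lost without any 1 of 14 of the 18 arrays. Next in order, and not passing, were Dlx6os2 (0.47 ± 0.11, adjusted p = 0.0616), Gata5 (0.55 ± 0.13, adjusted p = 0.0648) and Pax3 (0.34 ± 0.10, adjusted p = 0.142), each without overlap between placebo and testosterone pools. Counts in this gland depended on the fit: 22 factors passed with array weights (26.7% of all probes) and 0 without the filter on dim probes or with quantile normalization. With the meibomian arrays fitted alone 5 passed (3.3% of all probes). The main fit used 1 spread per probe for all glands. The median SD between pools was 0.0916 (placebo) and 0.149 (testosterone) in the meibomian gland, against 0.186 to 0.204 in the other groups. The count of 1 therefore does not show that the factors did not respond. The factors that mark the meibomian gland did not pass in the main fit, with Pitx1 at 2.71 ± 0.305 and 3.63 ± 0.735, Sox7 at 4.13 ± 0.290 and 3.25 ± 0.122, Gata3 at 2.90 ± 0.155 and 2.29 ± 0.535, and Gata6 at 0.804 ± 0.0847 and 0.691 ± 0.0328.

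Changes in the lacrimal and submandibular glands, which share no arrays, met in 4 factors, or 20% of the lacrimal and 26.7% of the submandibular calls, against 19.9% and 40.5% over all tested probes. Elf5 and Foxa2 were lower and Foxp1 higher in both glands. Gata5 went opposite ways, up by 0.92 in the lacrimal gland and down by 0.64 ± 0.13, adjusted p = 0.00302 in the submandibular gland, where pools read 8.01, 7.05 and 6.52 with placebo and 4.72, 4.68 and 4.26 with testosterone. The difference between the 2 glands in Gata5 did not pass with placebo (-0.24 ± 0.13, adjusted p = 0.136) and passed with testosterone (1.31 ± 0.13, adjusted p = 2.46e-07). Tests of the difference between the changes themselves called 17 factors for lacrimal minus submandibular gland (6 higher and 11 lower), or 20.7% against 24% of all probes (10.3% and 13.8%). For lacrimal minus meibomian they called 16 (4 higher and 12 lower), or 19.5% against 17.6% (6.99% and 10.6%). For submandibular minus meibomian they called 9 (2 higher and 7 lower), or 11% against 7.4% (3.99% and 3.4%). The count of 16 became 10 without placebo lacrimal pool C or testosterone meibomian pool B, and the count of 9 became 20 with array weights. Lhx1, Foxp3, Nkx2-1, Hoxc4 and Alx4 differed in the lacrimal gland from both other glands, with lacrimal minus submandibular values of 3.43 ± 0.22, 3.26 ± 0.22, -2.36 ± 0.35, -2.04 ± 0.47 and -1.35 ± 0.20. Alx4 was dim in all pools of those other glands, and Nkx2-1 was low in their placebo pools. A fall there had little room to show, so these 2 differences do not tell whether the glands respond differently. For Irx3 the submandibular change exceeded that of the lacrimal gland (-1.21 ± 0.18, lacrimal minus submandibular) and of the meibomian gland (1.05 ± 0.18, submandibular minus meibomian). The fall of Elf5 in the submandibular gland was not distinguished from that in the lacrimal gland (0.29 ± 0.16, adjusted p = 0.22).

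Other regulators of gland development were counted from lists outside the symbol rule. Over all tested probes, 13.3% were higher and 14.8% lower in the lacrimal gland (median -0.07), and 8.54% and 5.25% in the submandibular gland (median 0.01). Of 40 tested probes for secretory and epithelial transcription factors, testosterone raised 3 and lowered 9 in the lacrimal gland and raised 4 and lowered 4 in the submandibular gland, with median changes of -0.20 and -0.03. Of 22 Polycomb and trithorax probes, which include the chromatin regulators that keep Hox genes on or off, 4 rose and 3 fell in the lacrimal gland and 3 rose and 0 fell in the submandibular gland (medians -0.06 and 0.17). Of 50 probes for ligands and receptors of branching growth, 9 rose and 7 fell in the lacrimal gland, and 11 rose and 1 fell in the submandibular gland (medians -0.02 and 0.05). None of these 3 lists had a probe that passed in the meibomian gland, where 0.59% of all tested probes did.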

How the data were processed

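RNA pools were hybridised to 18 one-colour arrays of 10500 probes. The deposited values were read as linear intensities from the values themselves, which are right-skewed with nearly equal array medians. The scanner, background correction and scaling are not given in the sources used here. A code of -1 was treated as no value, and a probe without a value on an array was left out of the fit there; other negatives (lowest -0.128) were set to 0. GEO's platform annotation named 1 gene for 8983 probes, several for 1 and none for 1516. It holds no positions. All per-sample value columns were used (0 left out).

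Values were taken as log2(intensity + 0.174), the offset being the 10th percentile of positive values. Probes with at least 2 values per group and above their array's 40th percentile on at least 3 arrays were tested, and other probes are called dim. limma 3.58.1 (R 4.3.3) fitted a mean per group over 18 arrays (12 residual degrees of freedom, eBayes with trend), with Benjamini-Hochberg adjustment over 7463 probes and a threshold of 0.05. The fit was tested on simulated data. Python 3.11.15 and matplotlib 3.10.9 drew the figures. Nothing in the labels ties pools of equal letter to the same mice, and p-values measure the spread between pools.

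Genes named are, per comparison and direction, up to 8 passing factors with the largest differences, plus factors with a textbook place in these glands; others were chosen after their values were seen. The genes and lists were chosen with earlier results of these data known. There were 10 alternatives (offset 4 times smaller or larger, no or a stricter filter, quantile normalization, only the glands compared, array weights, a block for pool letter, no-value as 0 and a common floor) and each of 18 arrays was left out in turn.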

Additional observations from a re-analysis of the deposited data

Results flagged for a closer look

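The change with testosterone differed between glands, by a test of the difference itself (limma, Benjamini-Hochberg adjusted p), for 8 factors in 16 contrasts described here. For Lhx1 the lacrimal change exceeded the submandibular change by 3.431 (adjusted p = 9.76e-09) and the meibomian change by 3.428 (adjusted p = 9.01e-09), on the log2 scale. For Foxp3 these differences were 3.265 (adjusted p = 1.73e-08) and 2.815 (adjusted p = 9.45e-08).

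Nkx2-1 fell in the lacrimal gland, with differences of -2.614 from the meibomian change (adjusted p = 5.06e-05) and -2.365 from the submandibular change (adjusted p = 0.000113). Hoxc4 gave -2.039 against the submandibular gland (adjusted p = 0.00454) and -1.655 against the meibomian gland (adjusted p = 0.0213). Alx4 gave -1.767 against the meibomian gland (adjusted p = 9.77e-06) and -1.349 against the submandibular gland (adjusted p = 0.000132). In the meibomian and submandibular glands Alx4 was dim in all pools and Nkx2-1 was low with placebo, so a fall there had little room to show.

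Six3 differed in all 3 pairs, at -1.694 for lacrimal minus meibomian (adjusted p = 2.09e-05), -0.9615 for submandibular minus meibomian (adjusted p = 0.00981) and -0.7324 for lacrimal minus submandibular (adjusted p = 0.0185). Gata5 gave 1.554 for lacrimal minus submandibular (adjusted p = 8.71e-06) and -1.183 for submandibular minus meibomian (adjusted p = 0.000625). Foxa2 gave -1.391 for lacrimal minus meibomian (adjusted p = 0.039), a call that was lost with the smaller offset, with quantile normalization and without any 1 of 9 of the 18 arrays. It was dim in all meibomian pools, where a fall had little room to show. The causes of these differences were not tested.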

How the results depend on the processing

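Of 431 passing values, 341 kept their call under each of the 10 alternatives and 365 without each array in turn. The meibomian testosterone count (1) was 2 with the smaller offset, 0 without the filter, 0 with quantile normalization, 5 with the gland alone, 22 with array weights, 7 with the common floor and 0 to 3 without each array. The submandibular testosterone count (15) was 7 with the gland alone and 10 to 16 without each array, with 10 where placebo pool C was left out. Without the filter more dim genes were tested: 122 and 116 factors differed between lacrimal and meibomian gland (placebo and testosterone), 119 and 111 between submandibular and meibomian gland, 110 and 103 did so alike in both treatments, 34 were highest in the lacrimal gland with placebo, and 93 (placebo) and 89 (testosterone) lowest in the meibomian gland. The count for submandibular minus meibomian change (9) was 20 with array weights, 14 with the common floor and 7 to 11 without each array, and that for lacrimal minus meibomian change (16) was 10 to 17. With quantile normalization 2 directions reversed without passing: Gata1 in submandibular against meibomian gland with placebo (-0.0101, adjusted p = 0.959) and Alx4 in the same pair with testosterone (-0.1439, adjusted p = 0.436). The cause of these shifts was not tested.

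With the replicate block for pool letter, the testosterone counts were 20 (lacrimal), 0 (meibomian) and 15 (submandibular). Deviations of pools of equal letter correlated at -0.109 to 0.138 over 9 pairs of placebo and testosterone pools, and at -0.0647 to 0.132 over 18 pairs of different glands of 1 treatment. Only 1 of the 9 and 2 of the 18 pairs exceeded 0.1, so the letters were not treated as a pairing. Whether pools of different glands share mice is not known here.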
